A study of Mus musculus with 29 samples.

Results

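Regions of acetylated histone H3 lysine 27 (H3K27ac) in wild-type type 1 classical dendritic cells (cDC1) were set against those of wild-type lymphoid-primed multipotent progenitors (LMPP), region by region. The called regions of 4 libraries, 2 per cell type, were merged wherever they shared a base, which gave 57032 regions; merging all 14 H3K27ac libraries of the study gave 112928. A region was counted as cDC1-only when it was called in both cDC1 libraries and in neither LMPP library (6748 regions), as LMPP-only in the reverse case (2693) and as shared when it was called in all 4 (8132). The remaining 39459 regions had another pattern of calls, and 28396 of them (72.0%) had the smallest width in the lists, 501 bases.

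All groups used here came from wild-type C57BL/6 mice unless named otherwise. The cDC1 were taken from spleen by the surface profile XCR1+ and CD172a-, with much CD11c and MHC class II and no F4/80, and the LMPP from bone marrow as lineage-, CD117+, Sca-1+, CD135+, CD150- and IL-7R- cells; both were enriched on magnetic columns and then sorted by flow cytometry. The cDC1 used to map the transcription factor IRF8 were enriched on magnetic columns alone, as Thy1.2-, B220-, CD49b- and CD8a+ spleen cells, so the IRF8 peaks and the H3K27ac regions do not come from the same gate. Cell type and organ cannot be told apart in this comparison. For reference, calls were also read in wild-type LSK cells (the stem and multipotent progenitors from which LMPP derive), in LMPP of IRF8KO mice, and in LMPP, in progenitors of granulocytes and monocytes (GMP) and in shared precursors of monocytes and dendritic cells (MDP) of d+56kb mice, all from bone marrow; the d+56kb mice lack the enhancer 56 kb downstream of Irf8. Peaks of IRF8 and CEBPA were read in wild-type monocytes.

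H3K27ac is laid down by the acetyltransferases p300 and CBP at active promoters and enhancers. cDC1 are the dendritic cells that present antigen of dead cells to CD8 T cells, and they depend on the transcription factors IRF8, BATF3 and ID2. IRF8 binds DNA weakly alone and mostly together with partners: with ETS factors such as PU.1 at the ETS-IRF composite element (EICE), with another IRF molecule at the interferon-stimulated response element (ISRE), and with BATF3 and JUN at elements that carry part of an AP-1 site.

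Promoter sequences are shown for cDC1-only starts with an IRF8 peak, to make the motifs counted below visible. Among the 822 transcription starts, of 739 genes, that lay in a cDC1-only region, 72 had an IRF8 peak in the window from 250 bases before to 50 bases after the start. The sequences come from RefSeq (GRCm38.p6, the assembly of the files). Of 11 such promoters that belong to listed genes or to the widest regions, all 5 with an EICE or ISRE match and 1 of the 6 without are printed, so the set over-represents matches. Shown are the 250 bases before the start, 5′ to 3′ on the gene's strand, of a cDC1 marker (Cd8a), a killer cell lectin-like receptor (Klri1), an orphan receptor (Gpr33), the Toll-like receptor for profilin (Tlr11), a further orphan receptor (Gpr141b) and the chemokine Cxcl9. Capitals mark a match to GGAANNGAAA (EICE) or GAAANNGAAA (ISRE) on either strand.
Cd8a, chr6:71373177-71373426, plus strand, a pair of EICE matches: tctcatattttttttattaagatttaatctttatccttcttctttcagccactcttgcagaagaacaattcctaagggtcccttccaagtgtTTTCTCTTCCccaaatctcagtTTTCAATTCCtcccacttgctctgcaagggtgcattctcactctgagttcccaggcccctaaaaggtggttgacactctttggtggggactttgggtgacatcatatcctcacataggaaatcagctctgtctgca
Klri1, chr6:129717133-129717382, minus strand, an EICE match: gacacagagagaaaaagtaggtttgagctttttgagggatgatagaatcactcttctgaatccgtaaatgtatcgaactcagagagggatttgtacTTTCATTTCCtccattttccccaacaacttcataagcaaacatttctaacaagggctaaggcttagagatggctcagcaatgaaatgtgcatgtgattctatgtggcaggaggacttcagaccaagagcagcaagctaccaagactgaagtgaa
Gpr33, chr12:52028064-52028313, minus strand, an EICE match: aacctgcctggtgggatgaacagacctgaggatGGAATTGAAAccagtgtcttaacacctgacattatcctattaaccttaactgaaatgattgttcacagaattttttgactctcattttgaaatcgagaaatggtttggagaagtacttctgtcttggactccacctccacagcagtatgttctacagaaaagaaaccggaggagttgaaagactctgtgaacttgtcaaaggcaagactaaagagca
Tlr11, chr14:50357664-50357913, plus strand, an ISRE match: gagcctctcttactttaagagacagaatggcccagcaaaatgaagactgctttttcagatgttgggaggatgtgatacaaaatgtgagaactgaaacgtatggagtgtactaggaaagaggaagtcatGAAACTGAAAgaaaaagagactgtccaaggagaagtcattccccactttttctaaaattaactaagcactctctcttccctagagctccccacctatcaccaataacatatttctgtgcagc
Gpr141b, chr13:19732952-19733201, minus strand, an ISRE match: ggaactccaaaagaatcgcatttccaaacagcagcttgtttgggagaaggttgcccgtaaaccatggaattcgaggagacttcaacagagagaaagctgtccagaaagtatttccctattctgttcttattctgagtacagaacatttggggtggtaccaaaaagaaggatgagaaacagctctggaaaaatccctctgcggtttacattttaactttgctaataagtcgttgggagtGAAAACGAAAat
Cxcl9, chr5:92328080-92328329, minus strand, neither match: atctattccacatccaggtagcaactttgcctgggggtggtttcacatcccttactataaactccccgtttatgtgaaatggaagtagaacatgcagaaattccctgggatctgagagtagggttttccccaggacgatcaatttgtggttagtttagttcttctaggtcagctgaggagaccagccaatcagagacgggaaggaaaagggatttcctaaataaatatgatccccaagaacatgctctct

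An EICE match stood in 12 of those 72 starts (16.7%, 95% Wilson interval 9.80 to 26.9) and in 2.53% of all 21262 starts of 17491 genes. An ISRE match stood in 8 (11.1%, 5.74 to 20.4) against 3.35% of all starts, and a match to the AP-1 motif TGANTCA in 14 (19.4%, 12.0 to 30.0) against 6.99%. The 2 longer motifs differ in 1 of their fixed letters, so no single run matches both, though overlapping runs can, and each was searched on both strands. The 750 cDC1-only starts without an IRF8 peak held EICE, ISRE and AP-1 matches in 2.80%, 3.47% and 4.80%. At the 360 shared starts with an IRF8 peak the shares were 7.22% (4.98 to 10.4), 9.44% (6.84 to 12.9) and 8.33% (5.90 to 11.6). Of these intervals, only that of AP-1 lies wholly below the interval of the cDC1-only starts with a peak. At the 143 starts with an IRF8 peak that fell in no class, they were 12.6% (8.11 to 19.0), 11.9% (7.56 to 18.2) and 10.5% (6.46 to 16.6). These intervals overlap those of the cDC1-only starts with a peak, and the median number of CpG was 5 here too. EICE and ISRE shares above those of all starts were thus seen outside the cDC1-only class too. A difference between these sets was not tested. The median number of CpG in the window was 5 at cDC1-only starts with a peak and 19 at those without, so the starts also differed in base composition. A match is a run of letters and no measurement of binding.

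The specific classes lay mostly away from promoters, the shared class mostly at them. Here a promoter region is one that overlaps the 1000 bases either side of a protein-coding start. Of the cDC1-only regions, 923 (13.7%) were promoter regions and 5825 were distal. Of the LMPP-only regions, 318 (11.8%) were at promoters and 2375 were distal. The shared class held 6156 promoter regions (75.7%) and 1976 distal ones. Distal regions lay a median of 22.8 kb (cDC1-only), 27.1 kb (LMPP-only) and 20.3 kb (shared) from the nearest start.

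Merged regions were widest where all 4 libraries shared them, an order that is partly built in. A shared region joins the calls of 4 libraries and a specific one those of 2, and a wide region is more easily hit by all 4. The median width was 1737 bases at cDC1-only distal regions, 1342 at LMPP-only distal regions and 2644.5 at shared distal regions. At promoters the medians were 1492, 1402.5 and 2136 bases. Within shared distal regions, a single library covered a median of 2208 and 1623 bases in cDC1 and 1312 and 1269 in LMPP. Of the regions over 10 kb wide, 155 were shared, 43 were cDC1-only and 2 were LMPP-only, the latter at Erg and at chr17:83982297-83993868, which had no protein-coding gene within 100 kb.

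**Figure D1:**
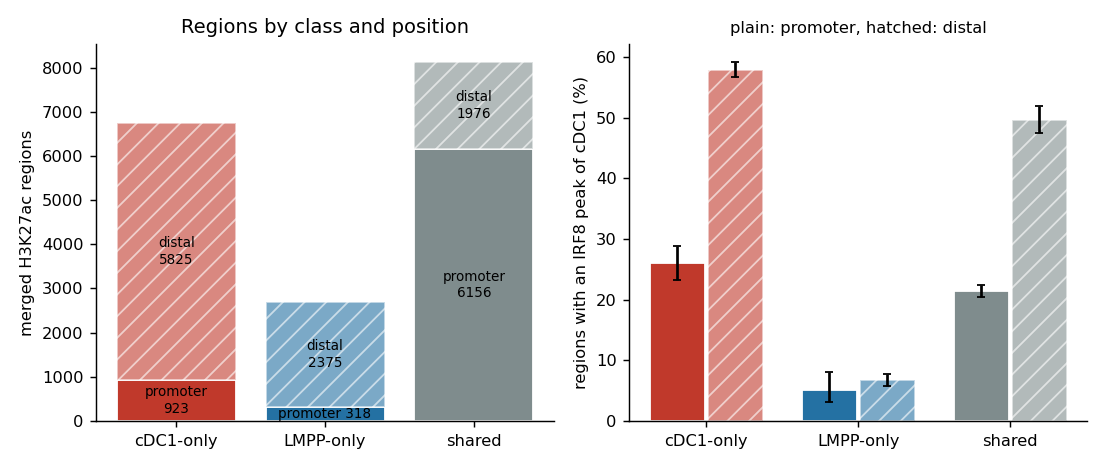
Left, number of merged H3K27ac regions (y axis) in each class, split into promoter (plain) and distal (hatched) regions; right, share of each in percent that held an IRF8 peak of cDC1, with 95% Wilson intervals as bars. The cDC1-only and LMPP-only classes are mostly distal (5825 and 2375 regions), and the share with IRF8 is 58.0% in cDC1-only and 49.7% in shared distal regions, an order that turns without either cDC1 library.

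The libraries differed in depth and enrichment, and the differences run with the counts. Sequenced tags came to 2.0 and 3.65 M in LMPP and to 5.42 and 10.9 M in cDC1 (M, mega), and 23.7% and 15% of the LMPP tags and 52.3% and 16.4% of the cDC1 tags lay in called regions. The called regions covered 22.2 and 25 Mb in LMPP and 48.7 and 33.9 Mb in cDC1. Their part in the class sizes was not tested. Resting the class on 1 library of a group raised the cDC1-only count to 13576 (without WT cDC1 replicate 1) or 15057 (without WT cDC1 replicate 2), and the LMPP-only count to 16684 (without WT LMPP replicate 1) or 10501 (without WT LMPP replicate 2). The labels name biological duplicates and not whether they came from separate animals, so p-values measure the spread between these libraries, which may be technical.

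Nearly all LMPP-only regions were also called in the more deeply sequenced LSK libraries (8.30 and 7.19 M tags). Both LSK libraries held 95.2% of the LMPP-only distal regions and 99.1% of the LMPP-only promoters. Of the cDC1-only regions, both LSK libraries held 50.9% of the promoters and 16.3% of the distal regions. A cDC1-only promoter was therefore, in 470 of 923 cases, one that was called in LSK and in neither wild-type LMPP library. Over all merged regions, both LSK libraries held 85.9% of the promoters and 23.7% of the distal regions, so the cDC1-only shares lay below these. Leaving out each cDC1-only region called in either LSK library left 4463 of 6748. In the MDP of d+56kb mice, both libraries held 18.4% of the cDC1-only distal regions and 44.5% of the LMPP-only distal regions, against 14.7% of all distal regions. Absence from LMPP also holds for the wild-type libraries alone. In LMPP of d+56kb mice, at least 1 library held 52.3% of the cDC1-only promoters and 20.9% of the cDC1-only distal regions. Both held 31.3% and 8.02% of these, and 93.7% and 88.5% of the LMPP-only promoters and distal regions. Over all merged promoters and distal regions, at least 1 of these libraries held 86.6% and 26.0%, and both held 79.1% and 18.1%. In these libraries 36.8% and 38.1% of the tags lay in called regions.

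Marker lists were read as a check of the labels. All 22 cDC1 markers found in the annotation had called regions in both cDC1 libraries, with a summed 327 and 333 kb of covered bases after scaling each library to the same total covered length (scaled kb, used below throughout), against 37.9 and 31.7 scaled kb in LMPP. Of the 22 stem and multipotent progenitor markers, 21 were covered in both LMPP libraries (295 and 251 scaled kb), and 36.4 and 36.3 scaled kb were covered in cDC1. Of 12 red pulp macrophage markers, 5 were covered in both cDC1 libraries (17.8 and 11.2 scaled kb, against 2.97 and 6.11 in LMPP). Spic, C1qa, C1qb, C1qc and Axl had no covered base in cDC1, whereas Hmox1, Cd163, Adgre1 (the gene of F4/80, against which the cells were gated) and Treml4 had cDC1-only distal regions. In the limma fit described below, 3 of 9 of these markers were higher at distal regions (Hmox1, Adgre1 and Treml4) and 1 of 4 at promoters (Treml4), and none was lower. Among all genes tested in that fit, 14% were higher and 12.3% lower at distal regions, and 11.4% and 11.9% at promoters. The part of the macrophage markers in the results was not tested. Of 13 B cell markers and 12 T and NK cell markers, 4 and 3 were covered in both cDC1 libraries, and 6 and 7 in LMPP. Cd79a, Cd79b, Lck and Ncr1 were among those at 0 in cDC1, of which Cd79a and Ncr1 were at 0 in LMPP too. Cd3e was covered in both cDC1 libraries and at 0 in LMPP. In the fit, 1 of 8 T and NK markers was higher and 1 lower at distal regions, and 3 of 4 were lower at promoters. Of the B cell markers, 1 of 7 was lower at distal regions and 2 of 5 at promoters, and none was higher.

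IRF8 peaks of cDC1 stood in 58.0% of the cDC1-only distal regions (3376 of 5825; 95% Wilson interval 56.7 to 59.2) and in 6.74% of the LMPP-only distal regions (160 of 2375; 5.80 to 7.82). Shared distal regions lay between, at 49.7% (982 of 1976; 47.5 to 51.9), though above the cDC1-only ones when either cDC1 library was left out. Promoter regions held IRF8 less often in the classes that cDC1 used: 26.0% of cDC1-only promoters (240 of 923; 23.3 to 28.9) and 21.4% of shared promoters (1319 of 6156; 20.4 to 22.5), against 5.03% of LMPP-only promoters (16 of 318; 3.12 to 8.02). Over all merged regions the share was 16.6% at distal regions and 18.0% at promoters. In regions with another pattern of calls it was 8.80% and 9.87%, so the LMPP-only shares lay a little below those. IRF8 was mapped in cDC1 and monocytes and not in LMPP, so these shares say nothing of binding in LMPP. A peak was counted when it was called in both IRF8 libraries, which gave 19296 peaks. The intervals cover counting error only, and regions of a gene are not independent.

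Wider regions have more room for a peak, so the peaks were also counted per length. There were 30.6 IRF8 peaks per 100 kb of cDC1-only distal region, 18.8 in shared distal regions and 4.40 in LMPP-only distal regions; at promoters there were 14.7, 9.52 and 2.85. The share with a peak rose with width in the cDC1-only distal class, from 33.9% up to 1000 bases (the narrowest width left out) over 52.9% at 1000 to 2000 and 70.7% at 2000 to 5000 to 90.5% above 5000 bases. In the LMPP-only distal class it was 6.75%, 6.40%, 7.57% and 4.55% over the same widths, the last from 22 regions. The shared distal class went from 21.6% to 82.9%. At every width of distal region the cDC1-only share was thus above the shared one, with overlapping intervals up to 1000 bases (31.1 to 36.9 against 12.5 to 34.6), and the LMPP-only share was the lowest.

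**Figure D2:**
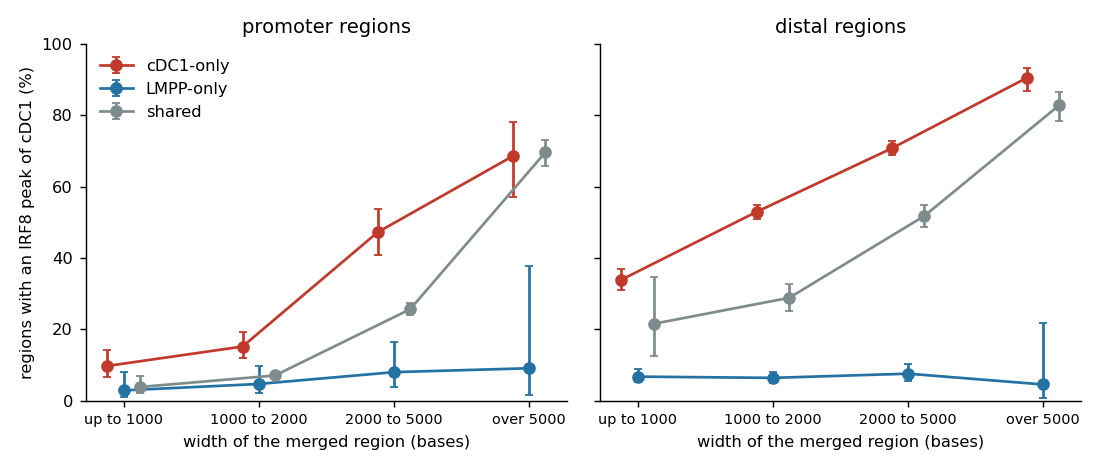
Share of regions with an IRF8 peak of cDC1 in percent (y axis) against the width of the merged region in bases (x axis), for promoter (left) and distal (right) regions; points are the share in a width class and bars 95% Wilson intervals. The cDC1-only distal share climbs from 33.9% to 90.5%, while the LMPP-only distal share stays between 4.55% and 7.57%.

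The share in the cDC1-only distal class rested on calls in both cDC1 libraries. It was 28.1% without WT cDC1 replicate 1 and 38.4% without WT cDC1 replicate 2, when regions of a single library entered. The LMPP-only distal share was 1.81% without WT LMPP replicate 1, 2.90% without WT LMPP replicate 2 and 10.7% without WT cDC1 replicate 1. The shared distal share was 46.5% without WT cDC1 replicate 1 and 44.6% without WT cDC1 replicate 2, so without either the shared class had the highest share. The cDC1-only share was above the LMPP-only one in each of these.

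The cDC1-only distal regions were then split by where else they were called. The IRF8 share was 54.6% in the 1671 regions also called in either LSK library (52.2 to 57.0), 65.7% in the 891 that were not called in LSK and were called in either d+56kb MDP library (62.5 to 68.7), and 58.3% in the 2846 called in none of the other 10 libraries (56.5 to 60.1). At cDC1-only promoters the spread was wider. There IRF8 stood in 18.7% of the 614 regions also called in LSK (15.8 to 22.0) and in 38.9% of the 185 called in none of the other 10 libraries (32.2 to 46.1); the median widths of these sets were 1363.5 and 1772 bases.

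Monocyte peaks gave a second view of the same regions. Of the 4202 reproducible monocyte IRF8 peaks, 82.5% overlapped an IRF8 peak of cDC1. They stood in 11.4% of cDC1-only distal regions, 16.6% of shared distal regions and 2.44% of LMPP-only distal regions. Peaks of CEBPA, a factor of granulocytes and monocytes, mapped in monocytes, stood in 16.8%, 38.9% and 13.4% of the same sets. Over all distal regions the shares were 3.72% for monocyte IRF8 and 8.01% for CEBPA. Seen from the IRF8 peaks of cDC1, 20.1% lay in cDC1-only distal regions, 8.49% in shared promoters, 6.63% in shared distal regions and 43.2% outside every merged region of the 4 libraries.

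Each distal region was given to the nearest protein-coding gene within 100 kb, which placed 5487 cDC1-only and 2177 LMPP-only regions. The median was 1 region per gene in both classes and in the shared one. The cDC1-only distal regions reached 3131 genes with a mean of 1.75 and a highest number of 19, and 561 genes had 3 or more. The LMPP-only distal regions reached 1538 genes with a mean of 1.42 and a highest number of 8, and 133 genes had 3 or more. Over all distal regions of a library, the mean per gene was 2.65 and 2.19 in cDC1 and 2.03 and 2.18 in LMPP, so the second libraries of both cell types were alike. Genes with more regions were longer: the median span was 38.1 kb at genes with 1 cDC1-only distal region and 139 kb at genes with 5 or more, against 14.5 kb at genes with none. At least 1 IRF8-bound region stood at 58.4% of genes with 1 cDC1-only distal region and at 97.5% of genes with 5 or more. Per region the share was 58.4% and 55.0% in these sets.

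Foxp1, a forkhead repressor, had the most cDC1-only distal regions (19, of which 9 held IRF8), and 2 LMPP-only ones. Asap1, an ARF GTPase-activating protein, had 14 with 5 bound. Cadm1, the adhesion molecule used as a cDC1 marker, Etv6, an ETS repressor, and Rbpj, the DNA-binding partner of Notch, had 11 each, with 6, 2 and 5 bound. At Ahcyl2, 9 of 10 regions held IRF8. Baz2b and Trps1 had 10 each, and Tns3 and Phlpp1 9 each.

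Among LMPP-only distal regions, the phosphodiesterase gene Pde4d had 8, the osteoblast and plasmacytoid dendritic cell factor Runx2 7, Osbpl1a 7 and the zinc finger factor Rreb1 7. Plcg2, Rnf220, Ly86, Prex1, 2900026A02Rik and Stxbp4 had 6 each. Of these 10 genes, 2 had an LMPP-only distal region with IRF8, Rreb1 with 2 regions and 2900026A02Rik with 1.

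**Figure D3:**
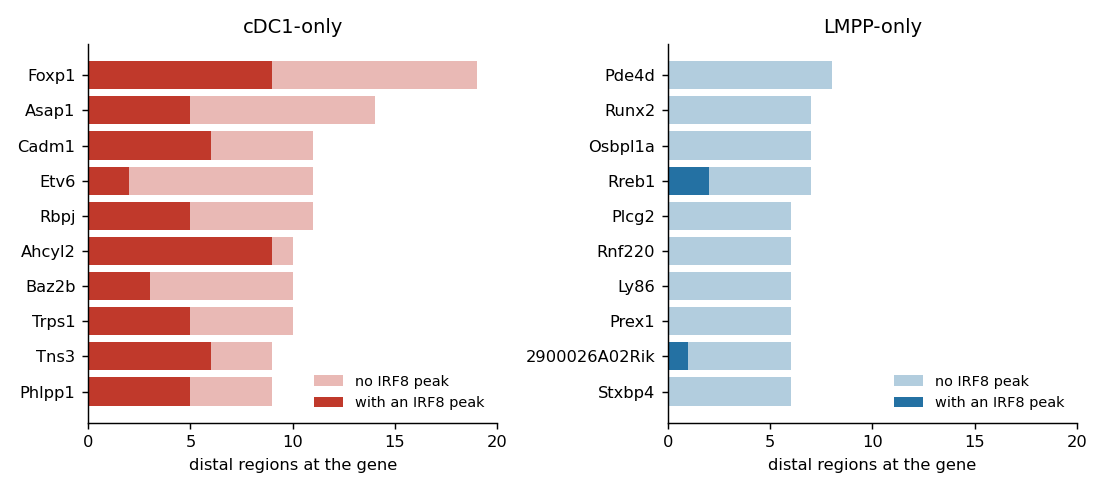
Number of distal regions (x axis) at the 10 genes with most cDC1-only (left) and most LMPP-only (right) distal regions; the dark part of a bar is the regions with an IRF8 peak of cDC1. Foxp1 has 19 cDC1-only regions, 9 of them with IRF8, and Pde4d has 8 LMPP-only regions, none of them with IRF8.

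Some genes held both kinds. Dym had 8 cDC1-only and 4 LMPP-only distal regions, and Hivep2, a zinc finger factor, had 5 and 4; all 5 of the former and 1 of the latter held IRF8 at Hivep2. Irf2 had 5 and 2, and Ikzf1, the Ikaros factor of lymphoid cells, 4 and 2. At Irf2 the summed distal bases were 26.9 and 29.1 scaled kb in cDC1 and 24.4 and 22.3 in LMPP, which did not pass the test (log2 difference 0.25 ± 0.14 (SE), adjusted p = 0.239), although the regions behind the sums were partly different ones. Runx1 had 5 LMPP-only and 1 cDC1-only distal regions.

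Promoters were often shared where the distal regions were not. Of 7051 genes with a shared promoter region, 1446 (20.5%) had cDC1-only distal regions and no LMPP-only one, 437 (6.20%) the reverse, 269 both and 4899 neither. Of 885 genes with a cDC1-only promoter, 275 (31.1%) had cDC1-only distal regions alone and 22 had LMPP-only ones alone. Of 289 genes with an LMPP-only promoter, 69 (23.9%) had LMPP-only distal regions alone and 18 the reverse.

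At Irf8 itself, the class of the promoter hides a difference in where the bases lie. The merged region chr8:120735265-120760951 was called in all 4 libraries and counts as shared, with 24898 and 16128 bases covered in cDC1 and 1002 and 657 in LMPP. Of the LMPP calls, 1 lay from 11.9 to 12.4 kb behind the start, in replicate 1, and 1 in each replicate lay near 24 kb, from 23.7 to 24.5 kb; none covered the start. Of the cDC1 libraries, replicate 2 covered the start, whereas the calls of replicate 1 ended 0.245 kb before it and began again 0.322 kb behind it. Around it stood 6 cDC1-only distal regions. The widest, chr8:120765801-120778737, ran from 29.4 to 42.4 kb downstream, with 12937 and 9599 bases covered in cDC1 and 2 IRF8 peaks; smaller ones with 1 IRF8 peak each were centred 26.0 kb upstream and 26.3 kb downstream. The region centred 56.7 kb downstream, chr8:120791906-120794218, which is where the deletion of the d+56kb mice is named for, was shared, with 2313 and 954 bases in cDC1 and 809 and 642 in LMPP. It held no reproducible IRF8 peak and a CEBPA peak in monocytes, and the promoter region held no IRF8 peak either.

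The other named regions of the factor network followed several patterns. Batf3, the AP-1 partner of IRF8 in cDC1, had a cDC1-only promoter (5888 and 5559 bases, 1 IRF8 peak) and 3 cDC1-only distal regions, of which the 7919-base one held 3 IRF8 peaks and was also called in both LSK libraries. Id2, the inhibitor of E proteins, had a cDC1-only promoter of 8898 bases without an IRF8 peak. Zbtb46, a zinc finger factor of classical dendritic cells, had a cDC1-only promoter and 5 cDC1-only distal regions. Spi1, which encodes PU.1, had a shared promoter region in which 15503 and 14844 bases were covered in cDC1 and 9511 and 7043 in LMPP. Meis1, a homeobox factor of stem cells, had 4 LMPP-only distal regions; its promoter region was shared and covered 7395 and 7370 bases in LMPP against 1016 and 935 in cDC1.

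The widest cDC1-only distal region, chr13:99200528-99227715, lay at Zfp366, the gene of the dendritic cell zinc finger factor DC-SCRIPT, with 26850 and 23777 bases covered and 3 IRF8 peaks. The widest cDC1-only promoter was that of the same gene (17528 and 14883 bases, 2 IRF8 peaks), followed by Pik3cb, Gm6377, Slamf7, Tlr11, Gpr141b, Cd83, Klri1, Rubcnl and Marchf1. All 10 held 2 or 3 IRF8 peaks. The widest LMPP-only promoter, at the stem cell ETS factor Erg (chr16:95447824-95460147), was covered over 12279 and 11824 bases and held 1 IRF8 peak. The other 9 LMPP-only promoters of the 10 widest, among them Egfl7, Bcor, Spry2 and Myct1, held none.

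To test the comparison per gene, the covered bases of each gene were summed and fitted with limma over all 14 H3K27ac libraries. For this fit the regions of all 14 libraries were merged, which joins neighbours that the 4 libraries keep apart, so bases counted as distal in the region classes can count as promoter here. The values are scaled kb, and a log2 difference is that of scaled bases plus 1000, which understates the change of genes with few bases. For distal regions 11785 genes were tested; 1646 (14%) were higher and 1445 (12.3%) lower in cDC1 at an adjusted p under 0.05. For promoter regions 11503 genes were tested, and 1308 (11.4%) were higher and 1365 (11.9%) lower. The split depended on the scaling: without it, 2217 distal values were higher and 925 lower, and 3100 promoter values were higher and 482 lower, with the median promoter difference moving from -0.06 to 0.29 on the log2 scale. With bases divided at the edge of the promoter window, in place of giving a whole region to the promoter, 853 promoter values were higher and 1934 lower. With regions merged over the 4 libraries compared, as in the classes, 2090 of 8301 distal values were higher and 2224 lower, and 1469 of 10550 promoter values were higher and 1614 lower. Without WT cDC1 replicate 1 the distal counts were 929 higher and 966 lower, and without WT LMPP replicate 1 they were 1336 and 1570, so which direction held more distal genes turned with 1 library. At promoters, 772 were higher and 806 lower without WT cDC1 replicate 1, and 778 and 885 without WT cDC1 replicate 2; without WT LMPP replicate 1 the counts were 1306 and 877.

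Cadm1 had the highest distal difference. Its distal regions covered 61.8 and 66.7 scaled kb in cDC1, and 0 and 0.695 in LMPP, a log2 difference of 5.65 ± 0.33 (SE) with an adjusted p of 1.57e-06. Both cDC1 libraries thus lay far above both LMPP libraries. Tmsb4x, encoding the actin-binding thymosin beta 4, covered 44.1 and 54.9 scaled kb in cDC1 and 1.82 and 0 in LMPP. P3h2, a collagen prolyl hydroxylase, covered 24.6 and 31.3 in cDC1 and nothing in LMPP. The 7 next genes were Ahcyl2, Ptafr (the receptor of platelet-activating factor), St8sia4 (a polysialyltransferase), Ptcd2, Galnt7, Zc3h12c and Foxn2, with log2 differences of 4.37 to 4.00.

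On the LMPP side the glycosyltransferase gene Galnt2 led, with no distal base covered in cDC1 and 20.3 and 16.7 scaled kb in LMPP (log2 difference -4.28 ± 0.21 (SE), adjusted p = 4.2e-07). Osbpl1a, Lrp5 (a Wnt co-receptor), Cables1, Armc2, Stxbp4, Plec (plectin), Ablim1, Adgrg3 and Cpne5 followed, between -3.96 and -3.50. Of these 10 genes, 6 had no distal base called in either cDC1 library. The call at Adgrg3 was lost when distal regions were given to the nearest start in place of the nearest span.

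At promoters Zfp366 led, with 12.5 and 15.7 scaled kb in cDC1 and none in LMPP (log2 difference 3.91 ± 0.33 (SE), adjusted p = 1.11e-05). Adam19, a metalloprotease, Cd83, a maturation marker of dendritic cells, and Dnase1l3, a secreted DNase, were among the 10 highest. Erg was the lowest, with no base in cDC1 and 37.1 and 30.9 scaled kb in LMPP (-5.12 ± 0.14 (SE), adjusted p = 5.52e-09). This sum joins the LMPP-only promoter of Erg with neighbouring regions that were LMPP-only distal ones in the classes: merged over the 4 libraries compared, the promoter covered 19.2 and 16.4 scaled kb in LMPP (log2 difference -4.23). Egfl7, a secreted factor gene of stem cells and endothelium, covered 20.1 and 15.5 scaled kb in LMPP and none in cDC1; Adgrg1, the receptor GPR56, covered 17.6 and 14.7 and none. Gcnt2, Cxxc5, Spns2, Il1r1, Bcor, Hoxa10 and Hoxa7 completed the 10; the last pair, with Hoxa9, share a region merged over 14 libraries and 1 value. The calls at Hoxa10 and Spns2 were lost when bases were divided at the edge of the promoter window.

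**Figure D4:**
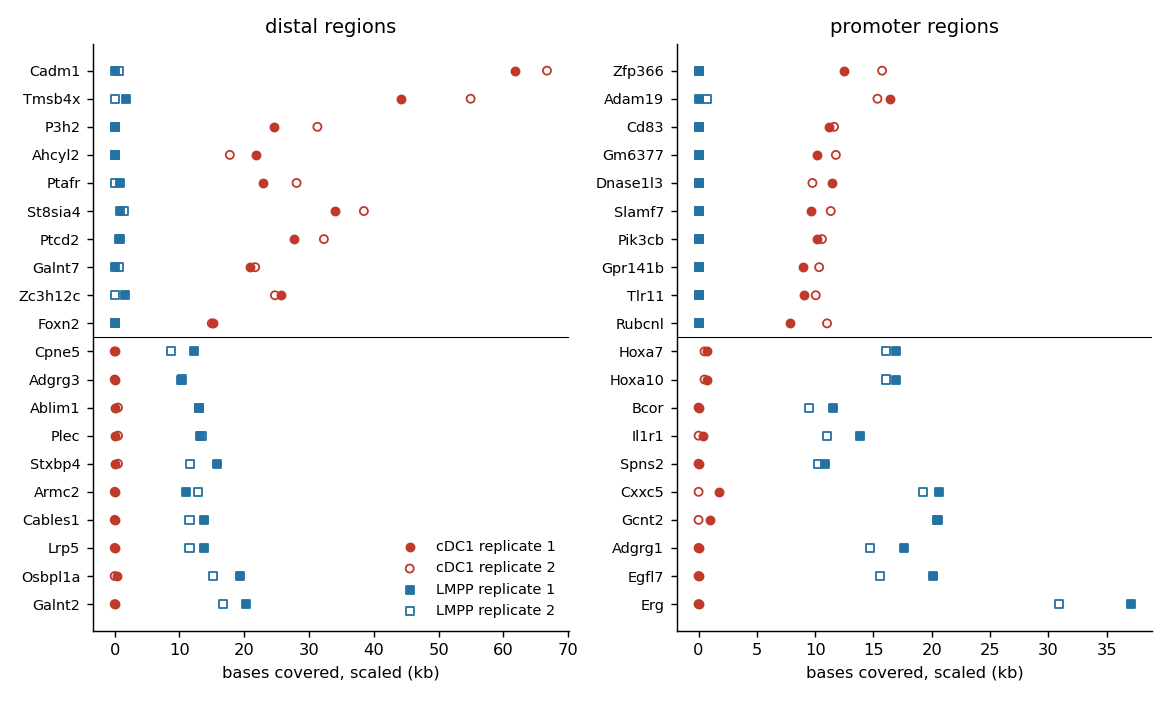
Bases covered by called regions after scaling, in kb (x axis), for the 10 highest and, below the line, the 10 lowest genes of the distal (left) and promoter (right) comparison; each point is 1 library. Separation of the cell types was a condition for choosing these genes; the plot shows the size of the difference, for example Cadm1 at 61.8 and 66.7 against 0 and 0.695.

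Of the cDC1 markers, 15 of 19 tested were higher and none lower at distal regions (median log2 difference 1.57, against 0 over all genes tested), and 18 of 20 were higher and none lower at promoters (2.24, against -0.06). The share of all genes tested that was higher was 14% at distal regions and 11.4% at promoters. Leaving out 1 library gave 10 to 15 distal and 14 to 18 promoter calls, the 10 without WT cDC1 replicate 1. Irf8 rose at both: distal regions covered 20.3 and 15.6 scaled kb in cDC1 and 3.04 and 0.891 in LMPP, and promoter regions 17.7 and 16.5 against 1.56 and 0.912. Clec9a, the receptor for exposed actin of dead cells, rose at its promoter region (24.4 and 32.6 against 3.41 and 2.78 scaled kb). Wdfy4, which is needed for cross-presentation, rose at distal regions (17.1 and 13.8 against 4.23 and 3.26), whereas its promoter covered 1.57 and 2.26 in cDC1 and 3.14 and 1.83 in LMPP and did not pass. The distal calls at Tlr3, Gcsam, Plpp1 and Gpr33 were lost without WT cDC1 replicate 1. The whole list held 53 cDC1-only distal regions at 16 genes and no LMPP-only one.

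Of the pan-dendritic-cell markers, 14 of 22 were higher at promoters and 7 of 18 at distal regions, where 1 was lower (Haao). All genes tested gave 11.4% higher and 11.9% lower at promoters, and 14% and 12.3% at distal regions. The promoter count is of genes: H2-Aa and H2-Eb1 had 1 value between them when regions were merged over the 4 libraries compared. Ciita, the master regulator of MHC class II genes, rose from 0 and 0 to 7.61 and 8.42 scaled kb at its promoter. Cd86, a costimulator, rose at distal regions (21.4 and 25.1 against 0.782 and 0.695). Flt3, the receptor that both cell types carry, covered 23.7 and 23.5 scaled kb of distal bases in cDC1 and 18.5 and 14.3 in LMPP and was not called (adjusted p = 0.0887). The promoter count was 8 without WT cDC1 replicate 2. With bases divided at the edge of the window, 5 of 21 were higher and 1 lower at promoters, and 13 of 21 were higher and 1 lower at distal positions.

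Stem and multipotent progenitor markers went the other way: 17 of 22 were lower and 2 higher (among them Procr) at promoters, with a median of -2.19, and 9 of 17 were lower and none higher at distal regions, with a median of -1.44. Over all genes tested, 11.9% were lower and 11.4% higher at promoters, and 12.3% and 14% at distal regions. The promoter count is of genes and not of regions: Hoxa7, Hoxa9 and Hoxa10 are counted apart and share 1 region and 1 value. With regions merged over the 4 libraries compared, 14 of 18 markers were lower and 1 higher (Kit) at distal regions. Lmo2, a bridging factor of stem cells, covered 2.98 and 3.22 scaled kb of distal bases in cDC1 and 33.3 and 28.5 in LMPP. Kit, the stem cell factor receptor, covered 13.4 and 15.6 distal scaled kb in cDC1 and 9.73 and 9.19 in LMPP and was not called in the fit over 14 merged libraries. Behind these sums at Kit stood different regions, a cDC1-only one of 10538 bases with 3 IRF8 peaks and 2 LMPP-only ones. Of the lymphoid priming genes, 6 of 11 fell and 1 rose at promoters; Dntt, the terminal transferase, covered 6.06 and 5.62 scaled kb in LMPP and none in cDC1.

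Among lineage transcription factors, 6 of 27 were higher and 6 lower at distal regions, against 14% and 12.3% of all genes tested. Etv6 covered 105 and 111 scaled kb in cDC1 and 32.1 and 22.7 in LMPP, and Bcl6, a repressor needed for cDC1, covered 18.5 and 18.1 against 0 and 2.09. Runx3 fell at distal regions, from 19.1 and 19.8 in LMPP to 6.21 and 5.85 in cDC1. Of the cell cycle genes none of 9 was called at distal regions, and 3 of 16 were higher and 3 lower at promoters. Of the housekeeping genes, 1 of 13 was lower and none higher at promoters. The promoter shares over all genes tested were 11.4% higher and 11.9% lower.

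Most genes called at distal regions were not called at promoters, and opposite calls were few. Of 7604 genes tested for both, 1366 were higher at distal regions. Of these, 400 (29.3%) were also higher at promoters, 58 (4.25%) were lower there and 908 were not called. Of 953 genes lower at distal regions, 242 (25.4%) were also lower at promoters and 43 (4.51%) were higher. Of the 5285 genes not called at distal regions, 10.5% were higher and 12.1% lower at promoters. Both values come from the same libraries. Of the genes with a higher distal value, 83.7% had an IRF8 peak in a distal region (1378 of 1646), against 29.5% of those with a lower value (426 of 1445) and 24.2% of those not called. The median gene spans were 37.9, 52.8 and 31.9 kb. This contrast is partly fixed by how the groups were made. A higher value means more bases covered in cDC1, in which a peak of cDC1 can be counted. Genes not called can lack any distal region in the 4 libraries compared. The groups were not matched for number or width of regions.

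Membership in the shared class leaves the width free, so the bases covered in each of the 8132 shared regions were tested with limma over the 4 libraries. At an adjusted p under 0.05, 743 (9.14%) covered more bases in cDC1 and 1252 (15.4%) more in LMPP. Scaling to total covered length put the median difference at -0.28 on the log2 scale, so the split is relative to it: without scaling, 1431 were wider in cDC1 and 107 in LMPP, and with the median of the shared regions set to 0, 867 and 468. It also turned on single libraries: without WT LMPP replicate 1, 710 were wider in cDC1 and 696 in LMPP, and without WT cDC1 replicates 1 or 2 the counts were 506 and 638 or 427 and 783. With 4 libraries there are 2 residual degrees of freedom, and the spread was largely borrowed across regions, so these p-values rest on that pooled estimate. All 4 libraries covered a common base in 7851 of the regions (96.5%).

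Shared regions wider in cDC1 held IRF8 most often. At distal regions the share was 81.5% where cDC1 was wider (243 of 298; 76.7 to 85.5), 46.7% where there was no call and 37.3% where LMPP was wider (177 of 474; 33.1 to 41.8). At promoters it was 66.5% (62.0 to 70.7), 19.1% and 10.3% (8.34 to 12.6). The merged regions called wider in cDC1 were also the wider ones, with a median of 5235 bases at distal positions against 2494 where LMPP was wider. Within distal regions of 2000 to 5000 bases the shares were 71.2% and 39.8%, and above 5000 bases 90.7% and 55.6%. Without scaling the distal shares were 73.8% and 38.7%.

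**Figure D5:**
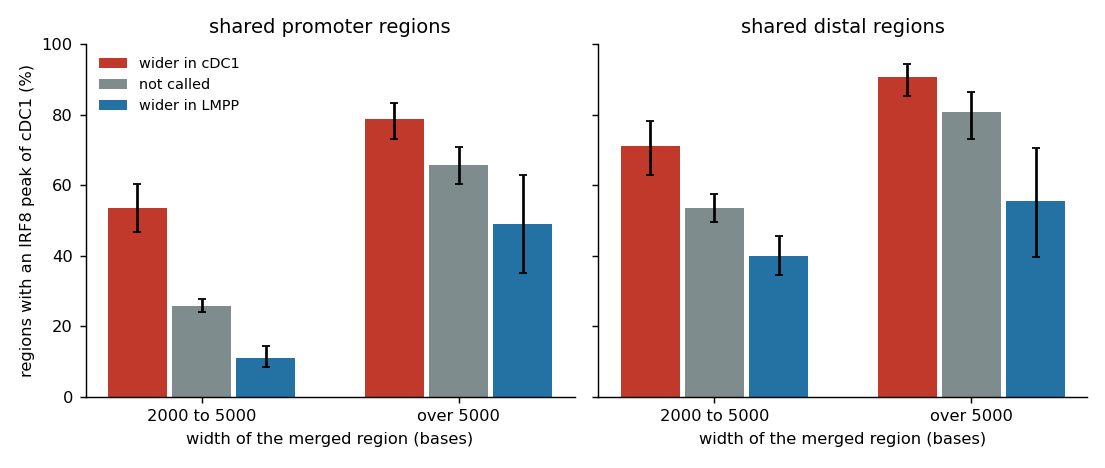
Share of shared regions with an IRF8 peak of cDC1 in percent (y axis) in regions of 2000 to 5000 and over 5000 bases (x axis), by the limma call on covered bases; bars are shares and lines 95% Wilson intervals. Within both widths of distal region the share is higher where cDC1 covered more bases, 71.2% against 39.8% and 90.7% against 55.6%.

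Single regions show how far width could move without a change of class. At Tbc1d8, a Rab GTPase-activating protein gene, a distal region covered 43749 and 40426 bases in cDC1 and 644 and 1503 in LMPP, with 3 IRF8 peaks. Dapp1, an adaptor of phosphoinositide signalling, had a distal region of 16665 and 13616 bases against 501 and 501. At Ifngr1, a chain of the interferon gamma receptor, the values were 13593 and 12120 against 501 and 501, with 4 IRF8 peaks. The LMPP calls at these last 2 regions had the smallest width in the lists, and no base there was covered in all 4 libraries. Slc8b1, Irf8, Fndc7, Tg, Tent5c, Etv6 and Tvp23a completed the 10 regions with the largest gain in cDC1, and Irf8 was the only 1 of the 10 without an IRF8 peak. At Slc8b1, Fndc7, Tent5c and Tvp23a, too, no base was covered in all 4 libraries. Where no base is common, a region counts as shared only because its calls were merged.

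In the other direction, a distal region at Anks1 covered 11250 and 9814 bases in LMPP and 1002 and 501 in cDC1. The promoter region of Ccnd2, cyclin D2, covered 4132 and 4293 bases in LMPP and 501 in each cDC1 library. Meis1, Nfe2, a factor of megakaryocytes and red cells, Hoxa7, Ripor1, Abl2, Ago1, Pik3r1 and Ptk2b followed. None of these 10 regions held an IRF8 peak of cDC1. At Nfe2 and Abl2 no base was covered in all 4 libraries.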

How the data were processed

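Per the labels, the reads were aligned to mm10 (GRCm38), and the submitters' processing notes name Bowtie 1.1.2 and HOMER 4.9. Per the file headers, H3K27ac regions were called in each library on its own against input DNA (peak size 500, 4-fold over input), and IRF8 peaks at a false discovery rate of 0.001. The deposited columns hold start and end positions, a unit of the kind other, with the same score of 1 for every region, so the width is the only measure of a region. Per-region depth is unknown; total tags were read from the headers.

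Starts came from RefSeq for 17491 of 21883 protein-coding genes (79.9%); both span ends served for the rest. Regions were merged over the 4 libraries for the classes and over all 14 for the sums per gene. Covered bases per gene, scaled to the mean total covered length, were fitted as log2(bases + 1000) with limma 3.58.1 (R 4.3.3; trend, robust; 14 libraries, 7 groups; covered in at least 2 libraries), and bases of shared regions over 4 libraries without a pseudocount, with Benjamini-Hochberg adjustment at 0.05. The fit per gene was checked on simulated data with large changes, no scaling and none of the zeros of the real values. That check does not cover scaled values or the fit of shared regions. Shares have 95% Wilson intervals, and an overlap is 1 base. A test over 2 against 2 libraries alone cannot reach a two-sided permutation p below 0.333.

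Members, 18 gene lists and tests were chosen with earlier results of these data known. Named are Irf8, the 10 genes with most regions per class, the 10 highest and 10 lowest calls per fit with non-overlapping groups, the 10 widest regions per class and position, list members, and promoters of the cDC1-only class with an IRF8 peak; the genes with both kinds of region were chosen after their values were seen. Of the list members, 4 were not matched in the annotation. Values of some list members are not reported here, and distal sequences were not analysed here. Alternatives covered scaling, pseudocount, filters, gene assignment, windows, single libraries and the replicate number.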

Additional observations from a re-analysis of the deposited data

How the results depend on the processing

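Of the alternatives, 5 were added after seeing the data: bases divided at the edge of the promoter window, scaling to the median of the shared regions, a base covered in all 4 libraries (7851 shared regions), gene sums over regions merged in the 4 libraries compared (4314 distal and 3083 promoter calls), and promoters of genes with a start in the RefSeq table alone. Calls in at least 1 library per cell type in place of both gave 20671 cDC1-only, 24162 LMPP-only and 12199 shared regions, and leaving out regions called in LSK left 4463 cDC1-only. Leaving out 1 library gave 7736 to 15057 cDC1-only, 2740 to 16684 LMPP-only and 8204 to 9252 shared regions. The promoter share was 17.3%, 15.3% and 77.0% (cDC1-only, LMPP-only, shared) with a window of 2500 bases, and 10.6%, 9.39% and 63.3% with table starts alone.

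The IRF8 share of cDC1-only, LMPP-only and shared distal regions was 65.9%, 9.01% and 57.9% with the first IRF8 library alone, 65.6%, 9.60% and 58.1% with the second and 72.3%, 11.8% and 64.6% with peaks of either. It ranged over 28.1 to 57.8%, 1.81 to 10.7% and 44.6 to 51.1% when 1 H3K27ac library was left out. For cDC1-only regions it was 55.8% with the peak's centre inside, 62.9% in regions of 1000 bases or more and 59.3% without regions called in LSK, where the LMPP-only share was 1.35%. The share in regions of the narrowest width gave no value, since each specific class held 1 such distal region.

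The number of limma calls ranged over 1895 to 2906 (distal), 1578 to 2504 (promoter) and 1144 to 1668 (shared regions) when 1 library was left out, and was 1671 at promoters with the 4 libraries alone. The lone library was then assumed to vary like the others. The replicate number as a block gave 2995, 2517 and 1495 calls, against 3091, 2673 and 1995 without it. Deviations of same-numbered libraries correlated at 0.0967, -0.00732 and 0.0302. With a single replicate difference per cell type, this cannot decide whether the numbers pair the libraries.

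With bases divided at the window's edge the log2 difference changed sign at the distal regions of Cd27 (-0.43) and the promoters of Bcl6 (-0.23), Btla (-0.44) and Etv6 (-0.53), as it did without scaling at the promoter of Tcf3 (0.070); the cause was not tested. Of 63 distal and 75 promoter calls at reported genes, 50 each passed under every alternative. Region depth is unknown, so whether a missing call reflects depth was not tested.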
